A study of Mus musculus with 143 samples.

Results

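Total RNA after removal of ribosomal RNA was compared between single control oocytes of adult mice at the germinal vesicle (GV) stage and single control oocytes of postnatal day 20 (p20). The libraries were chosen by their titles, which mark rRNA depletion (RiboMinus), the control genotype and the stage: 8 adult GV and 8 p20 oocytes, 16 of the 143 samples of the series. The series concerns DIS3 and EXOSC10, the ribonucleases of the nuclear RNA exosome, and holds poly(A) RNA, RiboMinus RNA and CUT&Tag data from control oocytes and from oocytes with conditional knockouts (cKO) of either gene or of both. The genotype of all 16 oocytes is given as control, the design text names the GV group as adult, and strain, floxed alleles and Cre are not given in the sources used here, so whether the 2 stages share a strain is not known. Oocytes were dissected from ovaries into M2 medium, each was made into its own library with the Ovation Solo kit and random hexamer primers, and a mix of synthetic ERCC RNAs was added in an amount that is not given for these libraries. Titles divide each group into 2 tags of 4 oocytes (AM1758 and AM1759 in adults, 1 and 2 at p20). The meaning of the tags is not given, so p-values measure the spread between these oocytes, which may come from few animals. Adult age, oocyte diameter and follicle class are not given either.

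Oocytes spend weeks in prophase arrest while they grow. During growth they transcribe and store the RNA and protein that will carry the egg through meiotic maturation and the first embryonic divisions, and they build the zona pellucida, the glycoprotein coat around the egg. Towards the end of growth the chromatin condenses around the nucleolus, transcription falls to a low level, and the cell depends on stored messages until the embryonic genome is activated. Ovaries of juvenile mice hold many oocytes that have not yet completed this programme, whereas fully grown GV oocytes of adults have.

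Gene counts ranged from 20402604 to 31364267 per library in adults and from 16043788 to 19702270 at p20, and ERCC counts from 49352 to 83546 and from 12313 to 17832. Neither range overlapped the other group's. Gene counts per ERCC count were 403 ± 48.5 (SD, n = 8) in adults and 1267 ± 178 at p20, 3.14-fold higher at p20 (2-sided exact permutation test, p = 0.0001554, the smallest that 12870 regroupings can give). Because the amount of ERCC mix is not given, counts were scaled to the library (TMM), and all values are relative levels, as gene counts scaled to a common library total (CPM), not amounts per oocyte. Stage cannot be told apart from the set in which the libraries were made. With ERCC counts as library size the median log2 fold change over all genes was -1.68, 45 genes passed as higher and 13331 as lower, and rises smaller than this shift change sign. The cells were oocytes by their markers: summed levels of 15 oocyte genes were 10982 to 16364 CPM in adults and 13892 to 18430 CPM at p20, and the globin genes Hbb-bs, Hbb-bt, Hba-a1 and Hba-a2 and the endothelial gene Cdh5 were at 0 in all 16. Of 13 granulosa and cumulus markers that could be tested 0 were called in either direction at the 2-fold minimum used below. Without that minimum, Kitl (log2 fold change -0.71) and Nr5a2 (-0.39) were lower and Serpine2 (0.25) higher in adults at adjusted p under 0.05. Summed levels of the granulosa and cumulus markers were 329 to 426 CPM in adults and 333 to 419 CPM at p20. Theca and stroma markers summed to at most 5.83 and 5.89 CPM, blood and endothelial markers to 68.5 to 94.9 and 48.1 to 75.2 CPM, nearly all of it Pecam1, and 1 gene of early embryos, Zscan4d, was called lower in adults, a call lost in 14 of 29 alternatives. The part of other cells in the results was not tested.

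Of 14455 genes tested, 400 were at least 2-fold higher in adult GV oocytes at an adjusted p under 0.05 (2.77%) and 661 were lower (4.57%), from the quasi-likelihood test of edgeR, adjusted by Benjamini-Hochberg; such genes are referred to as called. Without the 2-fold minimum, 2285 were higher (15.8%) and 2530 lower (17.5%), and the median log2 fold change over all genes was -0.0059. All 8 oocytes of one stage lay above all 8 of the other for 913 genes (6.32%), and 304 of the called genes were among them. Called genes were mostly of low abundance: 123 of the 400 higher and 188 of the 661 lower reached a mean of 10 CPM, against 57.5% of all genes tested. Pseudogenes made up 14.2% of the lower genes, 4.0% of the higher and 2.95% of all tested, and annotated small nucleolar RNAs 20 of the higher, 0 of the lower and 29 of all tested. Among the p20 oocytes, 2_1 and 2_4 correlated least with their group (median r of 0.954 and 0.952 against at least 0.963 for the other 6), and 2_4 was the highest p20 library for 288 of the 661 lower genes (43.6%, against 22.0% of all genes tested). Without it 531 genes were lower, 496 of the 661 among them.

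Leaving out gene models (symbols such as Gm or Rik) and pseudogenes, the largest difference in the higher direction was Pxdn, which encodes peroxidasin, a secreted peroxidase that crosslinks collagen IV in basement membranes (chr12:29936642-30017658, RefSeq GRCm38.p6, the assembly also called mm10). Its level was 108 to 154 CPM in the 8 adult oocytes (median 129) and 0 to 0.482 CPM at p20 (median 0.0270), where 4 of the 8 libraries had no count. Every adult oocyte stood far above every p20 oocyte, and the fitted log2 fold change was 9.77 ± 0.29 (SE, adjusted p = 4.06e-14); with so few counts at p20 its exact size is imprecise. Tmem175, a potassium and proton channel of lysosomes (chr5:108629779-108647770), was at 51.5 to 62.3 CPM in adults and 0.675 to 3.03 CPM at p20, a log2 fold change of 5.20 ± 0.23 (adjusted p = 3.51e-12). Arl8a, a small GTPase that moves lysosomes along microtubules, was at 41.7 to 60.7 CPM in adults and 1.69 to 10.3 CPM at p20 (3.25 ± 0.27). Cntn2, a cell adhesion molecule of the contactin family best known in axons (chr1:132509425-132543251), was at 41.6 to 69.4 CPM in adults and 2.32 to 9.18 CPM at p20 (3.17 ± 0.23). These 4 genes did not overlap between stages in any library.

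A flavin monooxygenase pair on chromosome 1 rose as well. Fmo6 was at 10.2 to 27.3 CPM in adults and 0 to 3.14 CPM at p20 (log2 fold change 4.27 ± 0.47), and Fmo4 at 22.7 to 26.2 CPM and 1.69 to 5.78 CPM (2.7 ± 0.19). Triobp, which binds and bundles actin (chr15:78947724-79005869), was the most abundant of the strongly higher mRNAs, at 262 to 595 CPM in adults and 44.4 to 59.9 CPM at p20 (3.03 ± 0.18). Its adult oocytes divided by title tag, with AM1758 at 262 to 341 CPM and AM1759 at 496 to 595 CPM, and both tags stood above p20. Stk36, a kinase linked to Hedgehog signalling and to motile cilia, varied most within adults, from 87.5 to 452 CPM, against 28.5 to 51.1 CPM at p20 (2.67 ± 0.31). Counts of Tmem175 and Stk36 include a caution: each overlaps a neighbouring gene (Dgkq and Rnf25), and whether the counting used strand is not given. Of 72 named genes with coordinates, 28 overlap another gene in this way.

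Other abundant mRNAs were called higher with smaller folds. Rnf10, a RING finger ubiquitin ligase (chr5:115241770-115272921), was at 288 to 346 CPM in adults and 123 to 152 CPM at p20 (log2 fold change 1.26 ± 0.06, adjusted p = 3.04e-12). Me1, the cytosolic malic enzyme that makes NADPH, was at 261 to 313 CPM and 123 to 146 CPM (1.08 ± 0.05). Elovl5, an elongase of polyunsaturated fatty acids, was at 284 to 412 CPM and 135 to 226 CPM (1.03 ± 0.10), and Ugcg, which makes glucosylceramide, at 219 to 448 CPM and 54.0 to 133 CPM (1.74 ± 0.21). The call of Ugcg was lost with counts summed per title tag (adjusted p = 0.0876 by edgeR). Ube2t, an E2 enzyme of the Fanconi anaemia pathway, was at 232 to 336 CPM and 94.0 to 160 CPM (1.06 ± 0.09). The groups did not overlap for any of these 5 genes. The call of Elovl5 was lost without adult oocyte AM1759_4 or without p20 oocyte 1_1 or 1_4, and that of Ube2t without p20 oocyte 2_4, since their folds then fell under the minimum.

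In the lower direction Prr15l, which encodes a small proline-rich protein (chr11:96926161-96937833), was at 17.6 to 34.1 CPM at p20 and 0 to 0.222 CPM in adults, where 5 of 8 oocytes had no count (log2 fold change -9.29 ± 0.41, adjusted p = 2.9e-12). Rpl37rt, a retrotransposed copy of a ribosomal protein gene, was at 19.3 to 31.1 CPM at p20 and 0.703 to 1.69 CPM in adults (-4.47 ± 0.19), and its reads may be shared with other copies. Ptprd, a receptor tyrosine phosphatase, was at 5.74 to 17.5 CPM and 0.223 to 0.992 CPM (-4.22 ± 0.30). Platr30, a long noncoding RNA (chr3:96345287-96358479), was at 10.7 to 14.3 CPM at p20 and 0.795 to 1.61 CPM in adults (-3.56 ± 0.16). All 4 were at no more than 1.69 CPM in any adult oocyte and at 5.74 CPM or more in every p20 oocyte.

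Rbm44, which encodes an RNA-binding protein of germ cells (chr1:91144973-91170799), was at 59.3 to 99.8 CPM at p20 and 7.12 to 12.9 CPM in adults (log2 fold change -3.07 ± 0.13, adjusted p = 1.74e-12). Mlycd, the malonyl-CoA decarboxylase that relieves the brake on fatty acid oxidation, was at 25.0 to 35.2 CPM at p20 and 2.15 to 3.90 CPM in adults (-3.41 ± 0.13). Acacb, the acetyl-CoA carboxylase that makes malonyl-CoA at mitochondria (chr5:114146321-114250761), was lower too, at 195 to 292 CPM at p20 and 68.7 to 94.7 CPM in adults (-1.52 ± 0.09). The mRNAs of Acacb and Mlycd, whose products make and remove malonyl-CoA, thus both had lower relative levels in adult oocytes. Other genes that act on malonyl-CoA are not given here. Gba2, a non-lysosomal glucosylceramidase, was at 18.3 to 29.3 CPM at p20 and 1.33 to 4.07 CPM in adults (-2.89 ± 0.18), while Ugcg, whose product it degrades, was higher in adults.

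The other falls named for size or abundance included kinase, ubiquitin and Rab pathway genes. Mapkapk2, a kinase activated by p38, was at 22.6 to 43.9 CPM at p20 and 3.19 to 7.34 CPM in adults (log2 fold change -2.88 ± 0.17). Pigw, an enzyme of GPI anchor synthesis, was at 12.5 to 36.9 CPM and 2.02 to 4.27 CPM (-2.87 ± 0.23), and Focad, a focal adhesion protein, at 130 to 196 CPM and 21.8 to 46.7 CPM (-2.38 ± 0.13). Pigw and Focad overlap Myo19 and Hacd4. Rusc2 was at 29.7 to 44.7 CPM at p20 and 3.82 to 13.7 CPM in adults (-2.25 ± 0.23). Uba6, an E1 enzyme for ubiquitin, was at 84.3 to 129 CPM and 14.4 to 36.9 CPM (-2.15 ± 0.19), and Klhl12, an adaptor of a cullin ubiquitin ligase, at 91.9 to 122 CPM and 20.2 to 36.4 CPM (-2.03 ± 0.10). The most abundant were Evi5, a regulator of Rab GTPases, at 350 to 417 CPM at p20 and 148 to 191 CPM in adults (-1.14 ± 0.06), and Dennd4c, a Rab exchange factor, at 244 to 351 CPM and 93.6 to 126 CPM (-1.35 ± 0.07). Rpap2, a phosphatase of the RNA polymerase II tail (-1.10 ± 0.06), and Appbp2 (-1.13 ± 0.11) closed the set. None of these genes overlapped between stages, and only Appbp2 among them lost its call under an alternative that left out libraries (without p20 tag 2, and without the 2 least similar oocytes of each group).

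**Figure D1:**
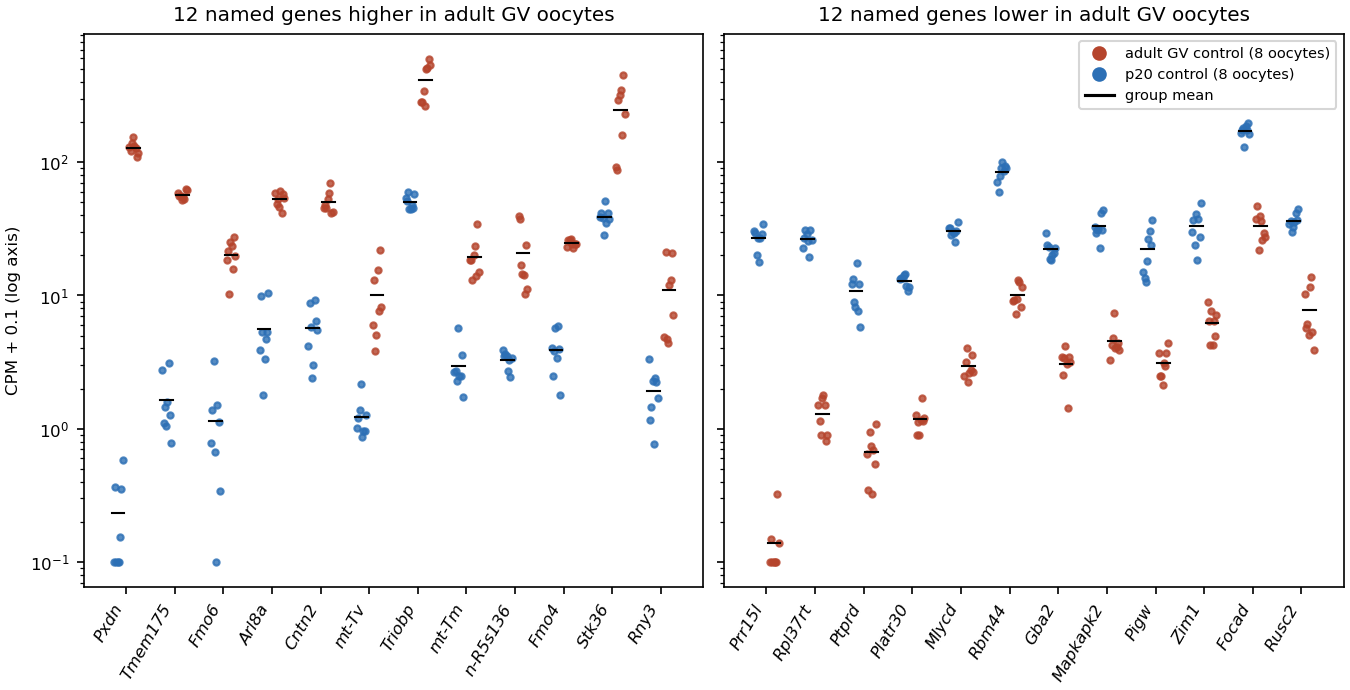
CPM plus 0.1 on a log axis for the 12 largest fold changes in each direction among eligible genes, gene models and pseudogenes left out. Eligible genes were called and without overlap, with a mean of at least 10 CPM in the higher group and less than 2-fold between title tags of that group. The 8 adult GV oocytes are in red, the 8 p20 oocytes in blue and the group mean is a bar. No gene overlaps between the stages, and Pxdn and Prr15l are at or near 0 in the stage where they are low.

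The sequence just before the start of 4 of these genes is shown, because their promoters differ in what the motif search and the chromatin data hold: Pxdn and Cntn2 carry the repressive histone mark H3K27me3 in at least 1 stage, and Rnf10 and Acacb, which changed in opposite directions, both hold a TATA box. Each line gives the 150 bases before the start in RefSeq (GRCm38.p6), 5′ to 3′ on the strand of the gene, with matches to CANNTG (the E-box, bound by FIGLA among many others), TAATTG (the element of NOBOX) and TATAAA (the TATA box) in capitals. Coordinates are chr12:29937886-29938035 on the plus strand for Pxdn, chr1:132542941-132543090 on the minus strand for Cntn2, chr5:115272896-115273045 on the minus strand for Rnf10 and chr5:114165368-114165517 on the plus strand for Acacb.
Pxdn: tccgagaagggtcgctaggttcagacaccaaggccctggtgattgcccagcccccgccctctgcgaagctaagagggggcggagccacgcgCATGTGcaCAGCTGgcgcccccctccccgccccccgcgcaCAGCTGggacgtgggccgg
Cntn2: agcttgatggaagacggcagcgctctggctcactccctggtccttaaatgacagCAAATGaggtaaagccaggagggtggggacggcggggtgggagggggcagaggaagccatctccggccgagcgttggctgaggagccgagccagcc
Rnf10: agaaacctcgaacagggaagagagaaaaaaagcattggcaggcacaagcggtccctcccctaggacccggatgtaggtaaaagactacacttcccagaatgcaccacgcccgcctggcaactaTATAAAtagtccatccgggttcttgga
Acacb: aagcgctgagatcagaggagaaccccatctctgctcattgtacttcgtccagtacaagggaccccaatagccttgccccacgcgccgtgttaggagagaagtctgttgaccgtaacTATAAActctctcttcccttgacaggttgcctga
The Pxdn window is 72.0% G and C and holds 3 E-box matches, whose first bases are at -59, -51 and -19 from the start, and the Cntn2 window is 64.0% G and C with 1 match at -96. The TATA box of Rnf10 begins at -27 in a window of 51.3% G and C, and that of Acacb at -34 in a window of 52.0%. The RefSeq starts used here lie within the printed bounds of all 4 genes. The Acacb window ends at chr5:114165517 and the gene begins at chr5:114146321, so its sequence precedes a start inside the gene.

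Over all promoters the motif content of higher and lower genes was close. In windows from 250 bases before to 50 after the start, on both strands, TAATTG was found in 7.90% of the 228 higher genes with a promoter sequence, 6.23% of the 385 lower genes and 6.53% of the 10317 tested genes that had one. CANNTG was found in 68.9%, 69.6% and 69.0%, and TATAAA in 8.77%, 8.83% and 9.20%. Among all 32851 promoter windows the shares were 8.0%, 72.3% and 13.6%. A match is a description of letters, not of a bound factor.

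Most small nucleolar RNAs that were high enough to be tested were called higher in adult oocytes. Small nucleolar RNAs (snoRNAs) guide the modification of ribosomal and spliceosomal RNA, and most are processed from introns and trimmed by nucleases. Of 150 snoRNAs and Cajal body RNAs with counts in the files, 21 were high enough to be tested. Of these 15 were called higher and 0 lower, and their median log2 fold change was 1.99. The list takes symbols that begin with Snord, Snora or Scarna. Of its 21 tested members 15 are annotated as snoRNAs (12 called) and 6 as guide RNAs (3 called), and the other 14 of the 29 annotated snoRNAs tested carry gene model symbols (8 called higher). Snord49b was at 0.804 to 3.48 CPM in adults and 0 to 0.285 CPM at p20 (3.43 ± 0.46), and Snord49a, encoded beside it (chr11:62603460-62603521), at 0.929 to 5.10 CPM and 0.108 to 0.314 CPM (3.30 ± 0.40). Snord32a, which guides methylation of ribosomal RNA, was the most abundant called member at 7.48 ± 3.73 CPM (SD, n = 8) in adults and 1.18 ± 0.43 CPM at p20 (2.66 ± 0.31). Snord118, the U8 RNA needed for processing of large-subunit rRNA, was at 2.66 ± 1.35 CPM and 0.459 ± 0.161 CPM (2.52 ± 0.35), and Snord13 at 4.18 ± 2.17 CPM and 0.913 ± 0.188 CPM (2.19 ± 0.30).

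The Cajal body RNAs within this list, which guide modification of spliceosomal RNAs, did not move as 1 block. Scarna3a (1.19 ± 0.25), Scarna3b (1.39 ± 0.43) and Scarna6 (1.12 ± 0.32) rose, although each call ended without at least 1 title tag, and that of Scarna6 without adult oocyte AM1759_3 or p20 oocyte 1_1. Scarna2 (0.33 ± 0.19, adjusted p = 0.191) and Scarna10 (0.19 ± 0.26, adjusted p = 0.606) did not pass. Scarna13, the most abundant of them, was lower, at 14.5 ± 5.85 CPM in adults and 26.2 ± 5.76 CPM at p20 (-0.85 ± 0.22, adjusted p = 0.00653), short of the 2-fold minimum. As a share of gene counts, all 150 together held 0.00839% in adults and 0.00516% at p20 (1.59-fold, exact permutation test, adjusted p = 0.000699 over 9 share measures). The members that passed are those high enough in at least some libraries, and several are at the limit of detection at p20.

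A further list of small RNAs, fixed for RNA polymerase III and spliceosomal RNAs, gave 4 called higher of 6 tested and 0 lower, with a median of 1.62. No spliceosomal RNA of the list was high enough to be tested, and 1 of the 6, Rnu73b, is a snoRNA by background knowledge. Rn7sk, the 7SK RNA that holds the elongation factor P-TEFb inactive, was at 11.7 to 42.1 CPM in adults and 3.37 to 6.97 CPM at p20, with no overlap (2.07 ± 0.26). The Y RNA Rny3 was at 4.33 to 21.1 CPM and 0.664 to 3.25 CPM (2.58 ± 0.39), and Rny1 at 9.63 ± 7.60 CPM and 4.28 ± 1.36 CPM (1.17 ± 0.36), a call lost without adult oocyte AM1759_1, adult tag AM1759 or either p20 tag. Rnu73b was at 0.612 to 2.55 CPM and 0.153 to 0.457 CPM (2.30 ± 0.39). The 5S ribosomal RNA copy n-R5s136 rose from 2.35 to 3.82 CPM at p20 to 10.2 to 39.3 CPM in adults (2.7 ± 0.28). Rpph1, the RNA of RNase P (0.35 ± 0.16), and Rmrp (-0.65 ± 0.72) did not pass.

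Mitochondrial tRNAs and longer mitochondrial RNAs are given apart. The mitochondrial genome is transcribed as long precursors from which tRNAs are cut out, so that tRNA, mRNA and rRNA counts come from the same primary transcripts. Of 10 mitochondrial tRNAs tested, 9 were called higher and 0 lower, against 2.77% and 4.57% of all genes, with a median of 1.86. The tRNA mt-Tv was at 3.75 to 21.9 CPM in adults and 0.774 to 2.07 CPM at p20 (3.15 ± 0.35), and mt-Tm at 13 to 34 CPM and 1.64 to 5.58 CPM (2.78 ± 0.24); neither overlapped between stages. Of the 9 mitochondrial mRNAs and rRNAs, 0 were called, 6 were higher and 0 lower at adjusted p under 0.05 (against 15.8% and 17.5% of all genes), and the median was 0.36. The mRNA mt-Nd1 was at 894 ± 152 CPM and 559 ± 156 CPM (0.68 ± 0.16, adjusted p = 0.0037) and mt-Cytb at 1024 ± 204 CPM and 894 ± 186 CPM (0.20 ± 0.13, adjusted p = 0.27). All mitochondrially encoded genes together held 1.02% ± 0.14 of gene counts in adults and 0.792% ± 0.108 at p20 (exact permutation test, adjusted p = 0.00671), with overlapping ranges. Only 3 of the 10 tRNAs were called higher without the adult tag AM1758, with a median of 1.88. Of the 9 mitochondrial mRNAs and rRNAs, 1 was higher at adjusted p under 0.05 without p20 tag 2 (median 0.21). The number was 3 without adult tag AM1758, 6 without adult tag AM1759 and 8 without p20 tag 1.

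Replication-dependent histone genes, whose mRNAs end in a stem-loop in place of a poly(A) tail, gave 11 called higher of 32 tested among 69, with 0 called lower and a median of 0.61. With 1 title tag left out, the number called higher ranged from 6 (of 41 tested, without p20 tag 2) to 12 (of 38, without adult tag AM1758). Between 0 and 2 were then called lower. Without p20 oocyte 2_4, 8 of 33 were called higher and 1 lower. Hist1h1a, a linker histone H1 gene, was the most abundant at 378 to 617 CPM in adults and 127 to 368 CPM at p20 (1.05 ± 0.18), and every adult oocyte stood above every p20 oocyte, although the call ended without adult oocyte AM1759_3 or without p20 oocyte 2_2 or 2_4. Hist1h3f was at 311 ± 71.0 CPM and 145 ± 41.4 CPM (1.11 ± 0.17), Hist1h4a at 61.5 ± 15.5 CPM and 23.2 ± 7.9 CPM (1.41 ± 0.23), and Hist1h3g at 10.7 ± 3.08 CPM and 2.83 ± 1.81 CPM (1.92 ± 0.31). Hist1h2bc (0.23 ± 0.11) and Hist1h2aa (0.00 ± 0.13), genes of core histone H2B and H2A, did not pass, and Hist2h4 was lower by less than 2-fold (-0.98 ± 0.24, adjusted p = 0.0045). The group held 0.136% of gene counts in adults and 0.0828% at p20 (1.66-fold, exact permutation test, adjusted p = 0.000699). Hist1h3e was called higher at 0.153 to 9.65 CPM and 0.392 to 2.05 CPM (2.06 ± 0.58), with overlap, a call that ended without adult tag AM1759 or either p20 tag. The call also ended with counts summed per title tag and with the title tag as a random block (limma voom). Copies within this family are near identical, so that levels of single members are uncertain. The mRNA of the stem-loop binding protein, Slbp, was at 826 ± 139.8 CPM and 646 ± 62.4 CPM (0.35 ± 0.09).

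Against 2.77% of all genes called higher, these counts cover only members that passed the filter on low counts, several of them through the adult group alone, and so support nothing about the lists as a whole. With ERCC counts as library size each list had a lower median: 6 snoRNAs were then higher and 5 lower (median 0.32), 2 mitochondrial tRNAs higher and 0 lower (median 0.20), 0 members of the list with Pol III RNAs higher and 2 lower (median -0.03), and 0 histone genes higher and 16 lower (median -1.04).

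**Figure D2:**
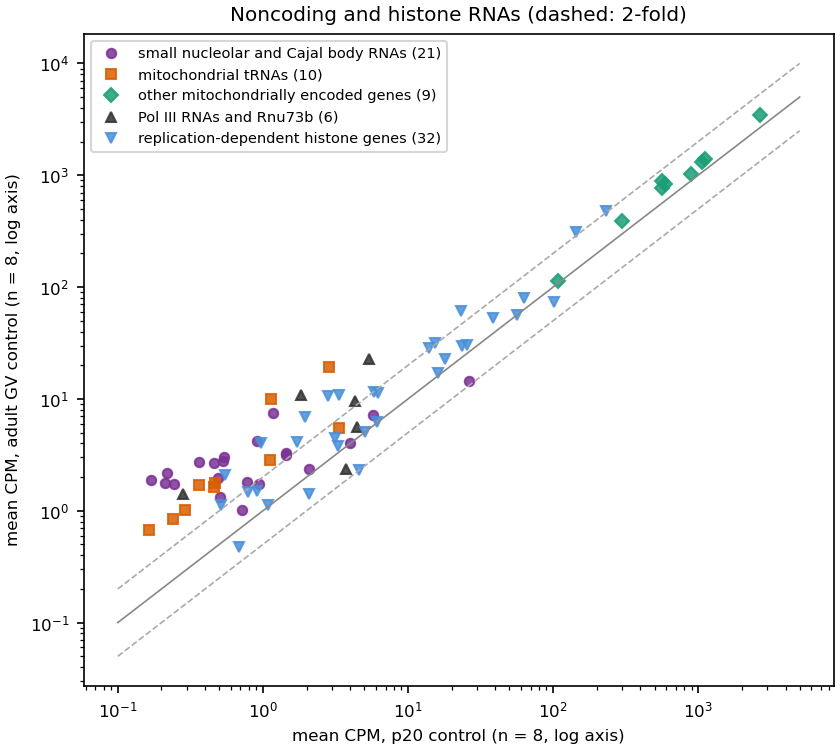
Mean CPM in 8 adult GV oocytes against mean CPM in 8 p20 oocytes, both on log axes, for the tested small nucleolar RNAs, mitochondrial tRNAs, other mitochondrial genes, Pol III RNAs with the snoRNA Rnu73b, and histone genes. Most snoRNAs and mitochondrial tRNAs lie above the upper dashed line of 2-fold, while the 9 longer mitochondrial RNAs lie between the solid line of equality and that line.

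Genes of the egg coat and the sperm-binding machinery gave 1 called higher of 11 tested and 0 lower, against 2.77% and 4.57% of all genes (median -0.12). The called gene was Cd81, a tetraspanin, at only 1.93 ± 1.16 CPM in adults and 0.592 ± 0.388 CPM at p20 (1.69 ± 0.49), with overlap, and the call was lost with tag sums, without adult tag AM1758 (0.87) and without p20 tag 1. Of the zona genes, Zp2 and Zp3 were lower by less than 2-fold. Zp2, whose protein binds sperm, was at 807 to 1112 CPM in adults and 1244 to 1660 CPM at p20 with no overlap (-0.57 ± 0.07, adjusted p = 5.5e-06), and Zp3 at 784 ± 112 CPM and 1088 ± 111 CPM (-0.47 ± 0.08). Zp1 was at 539 ± 81.5 CPM and 587 ± 55.9 CPM (-0.12 ± 0.08, adjusted p = 0.278). Zp1, Zp2 and Zp3 together held 0.229% of gene counts in adults and 0.315% at p20 (0.724-fold, exact permutation test, adjusted p = 0.000699). Astl, the cortical granule protease ovastacin that cleaves ZP2 after fertilisation, was at 154 ± 25.8 CPM and 278 ± 43.9 CPM (-0.85 ± 0.11). Izumo1r, the egg receptor JUNO for sperm IZUMO1, was by contrast at 105 ± 8.62 CPM and 83.0 ± 11.7 CPM (0.35 ± 0.08, adjusted p = 0.0028).

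Genes of the subcortical maternal complex and the oocyte Nlrp family, which organise the egg cortex, were mostly lower in adults by less than 2-fold. Of 15 tested, 0 were called at 2-fold, against 2.77% of all genes called higher and 4.57% called lower. At adjusted p under 0.05, 11 were lower and 1 higher, against 17.5% and 15.8% of all genes, and the median was -0.32. Padi6 was at 888 to 1259 CPM in adults and 1414 to 1941 CPM at p20, with no overlap (-0.63 ± 0.08, adjusted p = 8.4e-06). Nlrp5, also called MATER, was at 767 ± 96.9 CPM and 1185 ± 173 CPM (-0.63 ± 0.09), and Nlrp14 at 1519 to 2324 CPM and 2245 to 3855 CPM (-0.57 ± 0.10). Ooep, a small KH-domain member, was the exception at 580.4 ± 79.8 CPM and 472 ± 36.8 CPM (0.30 ± 0.07, adjusted p = 0.0046), and Zbed3, at 8777 ± 1267 CPM and 7627 ± 832 CPM, did not pass (0.20 ± 0.08).

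Secreted factors and transcription factors of the oocyte gave 0 called genes, against 2.77% of all genes called higher and 4.57% called lower. Of 8 secreted or junction genes, Gdf9 was at 2659 ± 1036 CPM and 3734 ± 575 CPM (-0.49 ± 0.20, adjusted p = 0.069), Bmp15, its partner in signalling to granulosa cells, at 2739 ± 423 CPM and 3331 ± 243 CPM (-0.28 ± 0.08), and Fgf8 at 74.4 ± 7.98 CPM and 59.0 ± 2.30 CPM (0.34 ± 0.07). Of 15 transcription factor genes tested (median 0.02), 4 were higher and 5 lower at adjusted p under 0.05, against 15.8% and 17.5% of all genes. Obox2, of the oocyte-specific homeobox cluster, was at 735 ± 150.4 CPM and 458 ± 50.4 CPM (0.68 ± 0.10), while Tbpl2, the TBP variant that directs transcription in growing oocytes, was at 15.2 ± 3.58 CPM and 25.9 ± 5.15 CPM (-0.77 ± 0.15), Gtf2a1l at 50.1 ± 9.66 CPM and 73.3 ± 13.4 CPM (-0.55 ± 0.12) and Pou2f1 at 225 ± 13.2 CPM and 334 ± 46.7 CPM (-0.57 ± 0.07). Nobox (-0.20 ± 0.07), Lhx8 (-0.27 ± 0.06) and Figla (-0.23 ± 0.13) differed by little.

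Among genes that store mRNA and control its translation, 1 of 22 was called higher and 1 lower, against 2.77% and 4.57% of all genes (median -0.04). Pabpc1, the somatic poly(A) binding protein, was at 12.9 to 37.9 CPM in adults and 24.7 to 74.8 CPM at p20 (-1.05 ± 0.23), whereas its oocyte form Pabpc1l was at 229 ± 13.4 CPM and 272 ± 20.2 CPM (-0.25 ± 0.05). Msi2, an RNA-binding regulator of translation, was at 8.00 to 50.9 CPM and 1.96 to 25.7 CPM (1.64 ± 0.47). Both calls ended when the 2 least similar oocytes of each group were left out. That of Msi2 also ended without adult tag AM1759 or p20 tag 2 and with all 6 groups in 1 fit. That of Pabpc1 also ended without adult oocyte AM1758_3, AM1759_3 or AM1759_4 or p20 oocyte 2_4, and without adult tag AM1759 or p20 tag 2. Zar1 (-0.07 ± 0.06), Cpeb1 (-0.05 ± 0.06) and Ybx2 (-0.21 ± 0.05), proteins that keep maternal mRNA dormant, differed by little. Of 26 deadenylation and decay genes 0 were called (median 0.11). Btg4, which recruits the CCR4-NOT deadenylase at maturation, was at 1486 ± 167 CPM and 1209 ± 157 CPM (0.30 ± 0.08), its catalytic partner Cnot7 at 819 ± 113 CPM and 633 ± 152 CPM (0.37 ± 0.13), and the m6A readers Ythdf2 (-0.55 ± 0.14) and Ythdf1 (-0.95 ± 0.19) were lower by less than 2-fold.

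Of the exosome genes that the series deletes elsewhere, Dis3 was at 15.1 ± 5.6 CPM in adults and 13.1 ± 4.63 CPM at p20 (0.21 ± 0.25, adjusted p = 0.55), and Exosc10 at 130 ± 11.8 CPM and 113 ± 10.5 CPM (0.20 ± 0.07, adjusted p = 0.027). Of 17 exosome and adaptor genes 1 was called, C1d, a cofactor of EXOSC10, at 2.33 ± 1.18 CPM and 5.80 ± 2.94 CPM (-1.31 ± 0.34), with overlap, a call lost without adult tag AM1758 and without the 2 least similar oocytes of each group. The share called lower over all genes was 4.57%, and the list's median was 0.07. The adaptor genes Zcchc8 (0.46 ± 0.08), Rbm7 (0.32 ± 0.08) and Mphosph6 (0.43 ± 0.06) were higher at adjusted p under 0.05.

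Genes of meiotic maturation held 0 called genes, against 2.77% of all genes called higher and 4.57% called lower. Of 25 genes of the CDK1 switch 0 were called (median 0.11): Cdk1 was at 38.2 to 51.3 CPM in adults and 40.9 to 58.4 CPM at p20 (-0.16 ± 0.08, adjusted p = 0.124), Ccnb1 at 243 ± 27.1 CPM and 214 ± 18.8 CPM (0.18 ± 0.07), Mos at 374 ± 46.3 CPM and 301 ± 28.2 CPM (0.32 ± 0.07) and Fbxo43, which encodes the APC/C inhibitor EMI2, at 179 ± 16.6 CPM and 136.4 ± 15.7 CPM (0.40 ± 0.07). Wee1, the somatic CDK1 kinase, was lower by less than 2-fold (-0.86 ± 0.19) and the oocyte form Wee2 slightly higher (0.22 ± 0.06). Of 17 genes that control cAMP and hold prophase arrest 0 were called (median -0.05), with Gnas (-0.58 ± 0.08) and Prkacb (-0.82 ± 0.16) the lowest of those past adjusted p of 0.05 and Gpr3 level (-0.05 ± 0.07). Of 27 spindle and kinetochore genes 0 were called (median 0.11), and 10 were higher and 2 lower at adjusted p under 0.05, against 15.8% and 17.5% of all genes. Bub1b, the checkpoint kinase BUBR1, led them at 1247 to 1622 CPM in adults and 831 to 1094 CPM at p20 with no overlap (0.65 ± 0.07, adjusted p = 5.6e-07), followed by Aurkc, the meiotic Aurora kinase, at 42.0 ± 7.62 CPM and 26.7 ± 3.14 CPM (0.65 ± 0.11).

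Genes of early meiotic prophase included 2 called lower of 17 tested and 0 higher, against 4.57% and 2.77% of all genes (median -0.02). Dmc1, the meiotic recombinase, was at 3.86 to 7.62 CPM at p20 and 0 to 2.08 CPM in adults (-2.54 ± 0.60), without overlap, with adult tag means of 1.63 and 0.244 CPM and a call lost with tag sums, and Mlh3, a crossover mismatch repair gene, at 4.70 to 12.6 CPM and 1.44 to 9.10 CPM (-1.11 ± 0.35), a call that ended without adult oocyte AM1758_3 or AM1759_3, adult tag AM1759 or either p20 tag. Sycp3, of the chromosome axis, was at 9.45 ± 3.06 CPM at p20 and 5.75 ± 1.72 CPM in adults (-0.72 ± 0.23, adjusted p = 0.021). Among genes with higher levels, Sycp2 (-0.19 ± 0.09) and Msh4 (0.13 ± 0.08) did not pass.

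Of the chromatin regulators 1 gene in each of 3 lists was called, each lower in adults, near the 4.57% over all genes. Of 19 genes of DNA methylation and imprint protection 1 was called, Uhrf2, a ubiquitin ligase that binds hemimethylated DNA, at 0.703 to 5.18 CPM in adults and 3.93 to 19.2 CPM at p20 (-1.72 ± 0.36), and the list's median was -0.08. Kdm1b, the H3K4 demethylase needed to set maternal imprints during oocyte growth, was at 205 to 385 CPM in adults and 355 to 641 CPM at p20 (-0.90 ± 0.13, adjusted p = 5.7e-05), and Setd2, the H3K36 methyltransferase, at 359.8 ± 72.0 CPM and 527 ± 39.3 CPM (-0.55 ± 0.10). Dnmt3a (0.14 ± 0.08), Dnmt3l (-0.16 ± 0.08) and Dnmt1, at 4461 ± 252 CPM and 4710.4 ± 365 CPM, did not pass. Of 26 Polycomb genes, which write and bind H3K27me3 and H2A ubiquitin, 1 was called, Ring1, at 0.618 ± 0.557 CPM and 1.88 ± 0.88 CPM (-1.59 ± 0.53), a call that ended without p20 oocyte 2_2, adult tag AM1758 or p20 tag 2, and the median was 0.11. Eed was at 176 ± 20.1 CPM and 127 ± 12.9 CPM (0.48 ± 0.08), and the H3K27 methyltransferases Ezh1 (-0.02 ± 0.06) and Ezh2 (-0.04 ± 0.05) did not pass. Of 18 histone variant and chaperone genes 1 was called, H2afz, at 0.741 ± 0.28 CPM and 1.55 ± 0.51 CPM (-1.06 ± 0.33), a call lost without adult oocyte AM1759_1 or AM1759_4 or p20 oocyte 2_2 or 2_4, adult tag AM1759 or p20 tag 1, with a list median of 0.20. H3f3b, a gene of histone H3.3, was at 139 ± 20.9 CPM and 93.5 ± 10.6 CPM (0.58 ± 0.09).

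Small RNA and imprinted genes are read against 17.5% of all genes lower and 15.8% higher at adjusted p under 0.05. The shares called are 4.57% lower and 2.77% higher. Of 23 small RNA pathway and germ granule genes 1 was called higher and 1 lower, 9 were lower and 3 higher at adjusted p under 0.05, and the median was -0.19. Piwil2, a PIWI protein that binds piRNAs, was at 3.17 to 11.2 CPM in adults and 7.74 to 25.9 CPM at p20 (-1.27 ± 0.27), and Ago1 at 1.88 to 5.28 CPM and 0.530 to 2 CPM (1.28 ± 0.28). Tdrd5 showed the tightest difference of the list, at 299 to 330 CPM in adults and 422 to 459 CPM at p20 (-0.48 ± 0.04, adjusted p = 4.1e-08), and Mael, of the nuage, was at 82.9 to 136.3 CPM in adults and 43.6 to 65.2 CPM at p20 (0.91 ± 0.11); neither overlapped. Of 16 imprinted genes 3 were called lower and 0 higher, with 5 lower and 0 higher at adjusted p under 0.05 (median -0.30). Zim1, a zinc finger gene of the Peg3 domain, was at 4.12 to 8.87 CPM in adults and 18.5 to 49.5 CPM at p20 without overlap (-2.42 ± 0.20), and Peg10 at 15 ± 5.78 CPM and 31.0 ± 11.4 CPM (-1.04 ± 0.26). The call of Peg10 was lost without any 1 of adult oocytes AM1758_2, AM1758_3 and AM1759_3 and p20 oocytes 2_2 and 2_4, and without p20 oocyte 2_4 the list had 2 called lower in place of 3. Impact, a regulator of the eIF2 kinase GCN2, was at 3.37 to 10.6 CPM and 10.4 to 25.7 CPM (-1.36 ± 0.22).

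The KIT and mTOR growth axis, which drives follicle activation and oocyte growth, had 0 called of 21 tested. Over all genes 2.77% were called higher and 4.57% lower. At adjusted p under 0.05, 12 of the 21 were lower and 2 higher (against 17.5% and 15.8% of all genes), and the median was -0.21. Kit, the receptor for KIT ligand, was at 534 to 669 CPM in adults and 599 to 747 CPM at p20 (-0.21 ± 0.06, adjusted p = 0.00811). Mtor was at 67.5 to 95.4 CPM and 78.7 to 147 CPM (-0.50 ± 0.10, adjusted p = 9.2e-04), with Rptor (-0.68 ± 0.21), Tsc1 (-0.45 ± 0.12) and Eif4ebp2 (-0.68 ± 0.13) in the same direction. Foxo3, the transcription factor that holds primordial follicles dormant, was at 879 to 1194 CPM and 710 to 1065 CPM (0.19 ± 0.07, adjusted p = 0.06), and Rheb, the GTPase that activates mTOR, was higher (0.46 ± 0.07). Of 17 calcium store and egg activation genes 1 was called lower (against 4.57% of all genes), Stim1, a calcium sensor of the endoplasmic reticulum, at 0.481 to 4.63 CPM and 1.05 to 13.2 CPM (-1.22 ± 0.43). That call ended in 14 of 30 alternatives, 7 of them with a single oocyte left out. The list's median was -0.15. Itpr1, the IP3 receptor that releases calcium at fertilisation, was at 305 ± 12.6 CPM and 373 ± 18.3 CPM (-0.29 ± 0.04).

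Of 29 genes of RNA polymerase II and its general factors 0 were called (median 0.11). Polr2a, the largest subunit, was at 84.0 ± 10.3 CPM in adults and 121 ± 27.8 CPM at p20 (-0.53 ± 0.12, adjusted p = 0.0023), and Cdk9, the kinase of P-TEFb, at 9.21 ± 2.05 CPM and 13.7 ± 3.27 CPM (-0.57 ± 0.16). Of 31 ribosome biogenesis and Pol I genes 3 were called lower and 0 higher, against 4.57% and 2.77% of all genes, while 12 were higher and 4 lower at adjusted p under 0.05 (median 0.15). Ubtf, the Pol I activator UBF, was at 9.21 to 34.0 CPM and 15.5 to 98.1 CPM (-1.26 ± 0.31), a call lost without adult tag AM1759. Taf1c was at 1.14 to 6.65 CPM and 2.49 to 14.4 CPM (-1.12 ± 0.37, lost without adult oocyte AM1758_3 or AM1759_4, p20 oocyte 2_4, adult tag AM1758 or either p20 tag). Nop2, an rRNA methyltransferase, was at 5.03 ± 2.26 CPM and 10.9 ± 3.65 CPM (-1.11 ± 0.26), a call lost without adult oocyte AM1759_3 or p20 oocyte 2_4. Without p20 oocyte 2_4, without adult tag AM1759 or without p20 tag 2, the list had 1 gene called lower in place of 3. The nucleolar protein genes Ncl (0.19 ± 0.05) and Npm1 (0.31 ± 0.06) were higher at adjusted p under 0.05. Of 55 spliceosome and SR protein genes 0 were called (median 0.21), and 23 were higher and 6 lower at adjusted p under 0.05. Over all genes 15.8% were higher and 17.5% lower at that threshold.

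Called genes of protein synthesis, respiration and the proteasome are read against 2.77% of all genes called higher and 4.57% lower. Of 79 cytosolic ribosomal protein genes 1 was called higher (Rpl6, 1.00 ± 0.27) and 1 lower (Rpsa, -1.77 ± 0.58, at no more than 1.83 CPM), and the median was 0.25. The call of Rpsa ended without adult tag AM1759, without either p20 tag and with all 6 groups in 1 fit. Together they held 0.124% of gene counts in adults and 0.107% at p20 (1.16-fold, exact permutation test, adjusted p = 0.000699), without overlap. Of 76 mitochondrial ribosomal protein genes 0 were called (median 0.12). Of 77 nuclear genes of oxidative phosphorylation, Ndufb4 was called higher (1.12 ± 0.39) and Uqcrc1, a core subunit of complex III, lower, at 0.687 to 2.10 CPM in adults and 2.32 to 8.11 CPM at p20 (-1.87 ± 0.31), with a median of 0.10. Of 36 proteasome genes 2 were called lower, Psmb11 (-1.42 ± 0.31) and Psmd13 (-1.26 ± 0.44), and the median was 0.10. The calls of Rpl6, Ndufb4 and Psmd13 each ended in at least 8 of the 16 alternatives that left out 1 oocyte.

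Of 285 tested Zfp genes, which encode DNA-binding zinc finger proteins, 26 were called lower and 3 higher, and 88 were lower and 30 higher at adjusted p under 0.05, against 4.57% called lower, 2.77% called higher, 17.5% lower and 15.8% higher over all genes. The median was -0.17. Zfp469 was at 30 ± 5.78 CPM in adults and 82.4 ± 24.9 CPM at p20 (-1.46 ± 0.18), Zfp961 at 52.1 ± 26.4 CPM and 122.5 ± 11.8 CPM (-1.23 ± 0.28), and Zfp964 at 12.8 ± 4.42 CPM and 40.3 ± 12.3 CPM (-1.65 ± 0.21). The call of Zfp961 was lost without adult tag AM1759. The largest fall, Zfp395 (-2.33 ± 0.63), included p20 oocyte 2_4 at 48.6 CPM against at most 12.8 CPM in the other 7. Zfp953 was at 0.153 to 4.44 CPM in adults and 2.80 to 15.7 CPM at p20 (-1.87 ± 0.55). Zfp820 (1.56 ± 0.32) and Zfp362 (2.90 ± 0.65) rose, but neither call held without adult tag AM1758. The call of Zfp395 was lost without either adult tag, and that of Zfp953 without adult tag AM1758 or p20 tag 2. Of 202 Slc transporter genes 5 were called higher and 13 lower, against the same shares (median -0.02). The thiamine transporter Slc19a2 was at 5.14 to 11.5 CPM in adults and 0.901 to 2.32 CPM at p20 (2.21 ± 0.22), and Slc26a5 at 17.3 ± 5.1 CPM and 3.94 ± 0.81 CPM (2.13 ± 0.18). Slc27a4, a fatty acid transport protein, was at 0.296 to 2.91 CPM and 3.10 to 9.17 CPM (-1.94 ± 0.38) and Slc38a10 at 13.3 ± 4.09 CPM and 39.5 ± 9.26 CPM (-1.57 ± 0.18). Slc38a1, at no more than 3.88 CPM in any oocyte, was called lower (-2.13 ± 0.72), a call lost without adult oocyte AM1758_2 or AM1759_3 or p20 oocyte 1_2 or 2_3, and without either adult tag or p20 tag 2. That call was also lost with the title tag as a random block (limma voom) and with all 6 groups in 1 fit. Slc16a5 was called higher (2.53 ± 0.74), but without the adult tag AM1759 its value was -0.0923, and its call was lost without p20 tag 2. Its call was also lost with counts summed per title tag and with the title tag as a random block (limma voom).

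Of 13 stress and handling genes 3 were called higher and 1 lower, against 2.77% and 4.57% of all genes (median 0.44). At adjusted p under 0.05, 7 were higher and 1 lower, against 15.8% and 17.5% of all genes. The heat shock gene Hspa1b was at 6.29 to 24.7 CPM in adults and 2.13 to 5.02 CPM at p20 without overlap (2.29 ± 0.26). Its near-identical copy Hspa1a was at 0.191 to 3.74 CPM and 0.0627 to 1.01 CPM (2.03 ± 0.54), a call lost without adult tag AM1759 or p20 tag 1. Ddit3, the transcription factor CHOP, was at 25.5 ± 4.26 CPM and 11.9 ± 2.55 CPM (1.10 ± 0.14). Ier2, an immediate early gene, was lower at 0.767 ± 0.226 CPM and 2.17 ± 1 CPM (-1.49 ± 0.33), a call lost without p20 tag 2. Hsph1 was not past the test (-0.47 ± 0.19). The part of handling in these values was not tested. Of 8 long noncoding RNAs tested, Malat1, a nuclear speckle RNA, was called lower (-1.55 ± 0.50, adjusted p = 0.0269; list median 0.08). It ranged from 3.92 to 89.9 CPM in adults and from 72.8 to 179 CPM at p20. Adult oocytes AM1758_3 and AM1759_3 were at 7.46 and 3.92 CPM, and the call ended without AM1759_4 (adjusted p = 0.0505) or without any of the 4 tags (adjusted p of 0.0504 to 0.169). Typed long noncoding RNAs held 1.23% of gene counts in adults and 1.18% at p20 (exact permutation test, adjusted p = 0.0871).

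**Figure D3:**
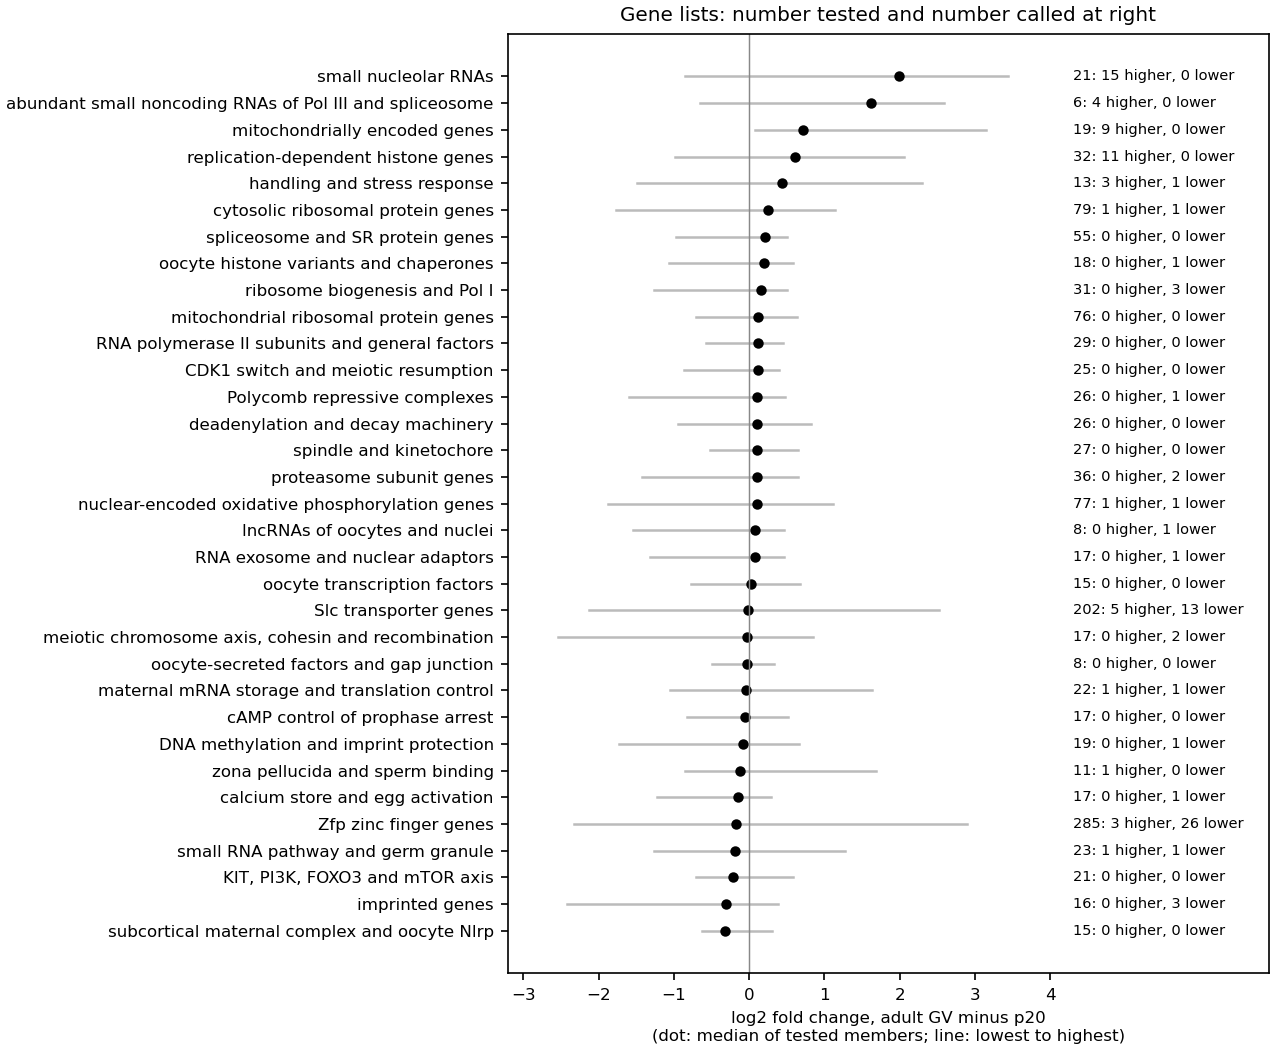
Median log2 fold change (dot) and range (line) of the tested members of 33 gene lists, adult GV minus p20, with the number tested and the numbers called at the right. Small nucleolar RNAs, the list with Pol III RNAs, mitochondrial genes and histone genes stand at the top with medians of 0.61 to 1.99, and the other lists have medians between -0.32 and 0.44.

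The 9 share measures also covered library composition. The 10 most abundant genes of each library held 3.97% ± 0.13 of gene counts in adults and 3.99% ± 0.08 at p20 (exact permutation test, adjusted p = 0.69), and gene models without a symbol of their own (Gm and Rik names) 2.76% and 2.68% (adjusted p = 0.0238). The number of genes at or above 1 CPM was 12789 ± 268 in adults and 13010 ± 215 at p20 (adjusted p = 0.102). Along the genome, chromosome 1 held the largest share of genes that were both called and without overlap, 40 of 820 tested (4.88%). The other autosomes and X held 0.243% to 3.18%, and over all 14455 genes tested the number was 304.

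Chromatin in control oocytes of both stages was profiled by CUT&Tag, which cuts and tags DNA where an antibody is bound, with 3 peak lists per stage for H3K27me3, the mark of Polycomb repression, and for RNA polymerase II. Titles of the polymerase libraries appear to mark phosphorylated serines of its tail, so their lists may not hold all forms of the polymerase. H3K27me3 lists held a peak at the start of a larger share of genes called higher in adults than of other genes. This was so in p20 as in adult oocytes. Within 1000 bases of the start, a p20 H3K27me3 peak was found for 42.4% ± 2.07 (SD, n = 3 lists) of the 228 higher genes with a RefSeq promoter, 16.1% ± 0.94 of the 385 lower genes and 14.4% ± 0.26 of the 9704 called neither. In adult lists the shares were 37.1% ± 13.1, 15% ± 7.28 and 13.1% ± 5.74. These shares are descriptions with no test, since an exact permutation test of 3 lists against 3 cannot reach the threshold and genes are not replicates. Shares were also taken by level, an alternative chosen after seeing the data. Under 10 CPM the p20 shares were 46.2% of higher genes, 16.7% of lower genes and 22.6% of those called neither. At or above 10 CPM they were 32.8%, 14.6% and 9.66%. Lower genes thus stood below those called neither under 10 CPM and above them at or above 10 CPM.

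A peak in all 6 H3K27me3 lists, adult and p20, was present at 46 of the 228 higher genes (20.2%), 27 of the 385 lower genes (7.01%) and 524 of the 9704 others (5.40%). The 46 include transcription factor genes: Pax5 at 39.5 ± 20.6 CPM in adults and 13.6 ± 9.41 CPM at p20 (log2 fold change 1.54 ± 0.38), Glis1 at 44.9 ± 13.1 CPM and 17.5 ± 9.38 CPM (1.36 ± 0.37), Hoxd13 at 3.47 ± 1 CPM and 1.59 ± 0.78 CPM (1.12 ± 0.32) and Foxn4 at 3.79 ± 3.75 CPM and 0.918 ± 0.682 CPM (2.04 ± 0.54). Cntn2, Hspa1b and Galnt6, which adds O-linked sugars and was the most abundant of the 46 (96.2 ± 18.8 CPM and 46.9 ± 7.61 CPM, 1.04 ± 0.12), belong to them too. The calls of Pax5, Glis1, Hoxd13, Foxn4 and Galnt6 each ended when at least 1 title tag was left out, and those of Hoxd13 (p20 1_1 or 2_4) and Galnt6 (adult AM1759_3 or p20 2_3) also without a single oocyte. These genes were chosen for the text after their values were seen.

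A peak present at p20 and absent in adults was found at few genes. A peak in all 3 p20 lists and in 0 of 3 adult lists was found at 4 of the 228 higher genes (1.75%), 3 of the 385 lower (0.779%) and 32 of the 9704 others (0.330%). Pxdn is 1 of these 4, with its RNA rising from at most 0.482 CPM to at least 108 CPM. No Pol II peak was found at the Pxdn start in any list of either stage. The part of list length in H3K27me3 peaks absent from adult lists was not tested. Platr30, which fell, had the mark in 6 of 6 lists, as did Cntn2, which rose.

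RNA polymerase II peaks within 1000 bases of the start were present at 9.06% ± 3.78 of higher genes in p20 lists, 15.2% ± 1.17 of lower genes and 14.4% ± 1.39 of the others, and in adult lists at 3.66% ± 2.16, 6.58% ± 3.10 and 6.19% ± 1.99. Adult lists were shorter, with 19697 to 35843 peaks against 74287 to 82446 at p20. The part of list length in the lower adult shares was not tested. H3K27me3 lists held 87394 to 202628 peaks in adults and 151535 to 159895 at p20. Per the series' design text, libraries had been brought to the same number of reads, duplicates were kept, and peaks were called in each library.

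**Figure D4:**
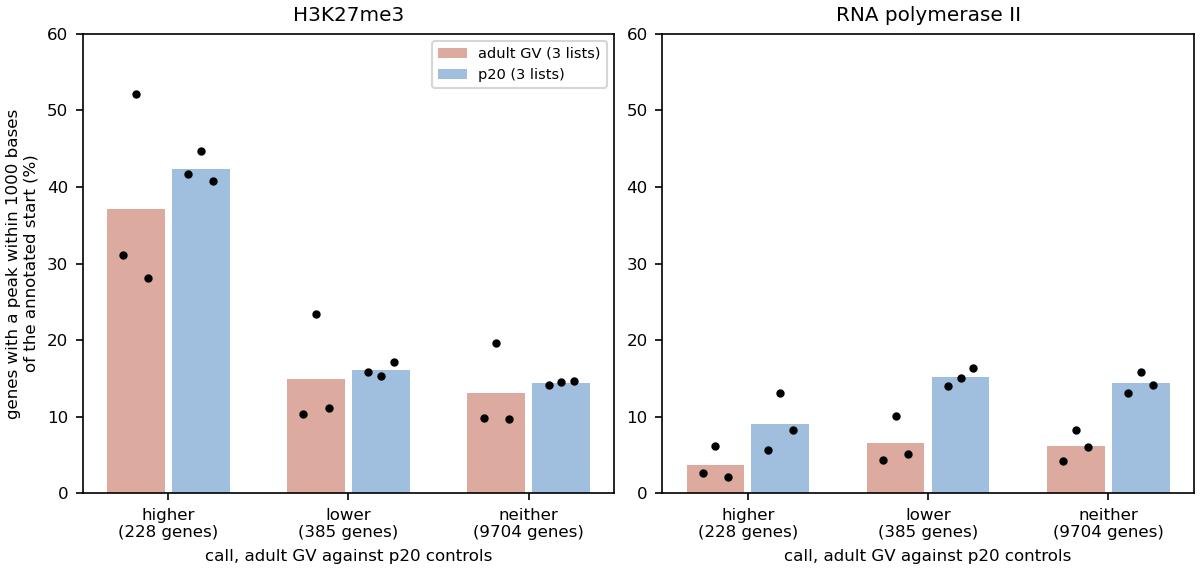
Share of genes with a peak within 1000 bases of the annotated start (percent), for genes called higher, lower or neither; bars are means of 3 lists per stage and dots are single lists. For H3K27me3 the higher genes stand at 37.1% in adult and 42.4% in p20 lists against at most 16.1% for the mean of any other class, and Pol II shares are lower in adult than in p20 lists for all 3 classes.

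The same stage difference can be read in Dis3 cKO oocytes (8 adult GV and 8 p20), of which the adult ones carry other title tags than the adult controls. Whether they were made in the same library sets as the controls is not given. Of 14162 genes tested there, 1855 were called, 1044 higher and 811 lower. Of the 1061 genes called in controls, 915 could be tested in Dis3 cKO and 750 of these had the same sign (82.0%, against 70.8% of all 13667 genes tested in both). Called in both with the same direction were 352 genes, 33.2% of the control calls and 19% of the Dis3 cKO calls. An interaction term over the 4 groups passed an adjusted p of 0.05 for 226 of the 1061 (21.3%), against 12% of all 16173 genes in that fit. The 1061 were chosen on their change in controls, which enters this term, so that nothing is read from the difference between these shares.

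Some named genes had stage differences close in size in both genotypes. Platr30 was at 1.03 CPM in adult and 12 CPM in p20 Dis3 cKO oocytes (log2 fold change -3.52 ± 0.33, against -3.56 in controls; interaction adjusted p = 0.957), and Acacb at 70.1 and 190 CPM (-1.44 ± 0.16; interaction adjusted p = 0.846). The tRNA mt-Tm (2.86 ± 0.43), Rny3 (2.46 ± 0.64), n-R5s136 (3.27 ± 0.43), Evi5 (-0.97 ± 0.09), Piwil2 (-1.48 ± 0.29), Impact (-1.68 ± 0.29) and Uhrf2 (-1.99 ± 0.38) had the direction of controls there and were past adjusted p of 0.05, with interaction terms that did not pass. A term that misses the threshold does not show that the changes were equal. Of all genes tested in Dis3 cKO, 7.37% were called higher and 5.73% lower. By list, and over the members that passed the filter there, 10 of 17 tested snoRNAs were higher in Dis3 cKO and 0 lower (median 1.36), 12 of 12 mitochondrial tRNAs higher (median 2.26), 9 of 30 histone genes higher and 1 lower (median 0.69) and 37 of 289 Zfp genes lower and 9 higher (median -0.10). Of the 9 longer mitochondrial RNAs, 8 were called higher in Dis3 cKO (median 1.69), where 0 were in controls.

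Other named genes had stage differences that were not alike in the 2 genotypes. Pxdn was at 91.5 CPM in adult and 290.5 CPM in p20 Dis3 cKO oocytes (-1.67 ± 0.18; interaction adjusted p = 5.15e-21), and at 0.390 and 0.605 CPM in p20 oocytes labelled Exosc10 cKO and double cKO. Tmem175 was at 66.9 and 52.9 CPM in Dis3 cKO (0.34 ± 0.11; interaction adjusted p = 6.95e-17), and at 49.0 CPM in p20 Exosc10 cKO. Cntn2 was at 39.4 and 73.2 CPM (-0.89 ± 0.18), and Stk36 at 65.0 and 238 CPM (-1.87 ± 0.28), with 231 CPM in p20 Exosc10 cKO. Me1 was at 274 and 275 CPM (0.00 ± 0.08; interaction adjusted p = 9.02e-10) and Rnf10 at 218 and 214 CPM (0.03 ± 0.11). Among falls, Mlycd was at 7.33 and 2.54 CPM in Dis3 cKO (1.52 ± 0.46, the opposite direction), Gba2 at 2.15 and 2.55 CPM (-0.25 ± 0.33) and Rbm44 at 11.6 and 17.3 CPM (-0.58 ± 0.20). Of the 79 named genes, 30 had an interaction past an adjusted p of 0.05, among them 27 of the 37 chosen for size or abundance, against 12% of all genes. All but Kit, Foxo3, Cdk1 and Mtor were chosen on their change in controls, which also enters the interaction. These counts therefore support nothing about the named genes as a group. Strain is not given for any of the groups, so it is not known whether they share one, and what sets these groups apart from the controls of the same stage was not tested.

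**Figure D5:**
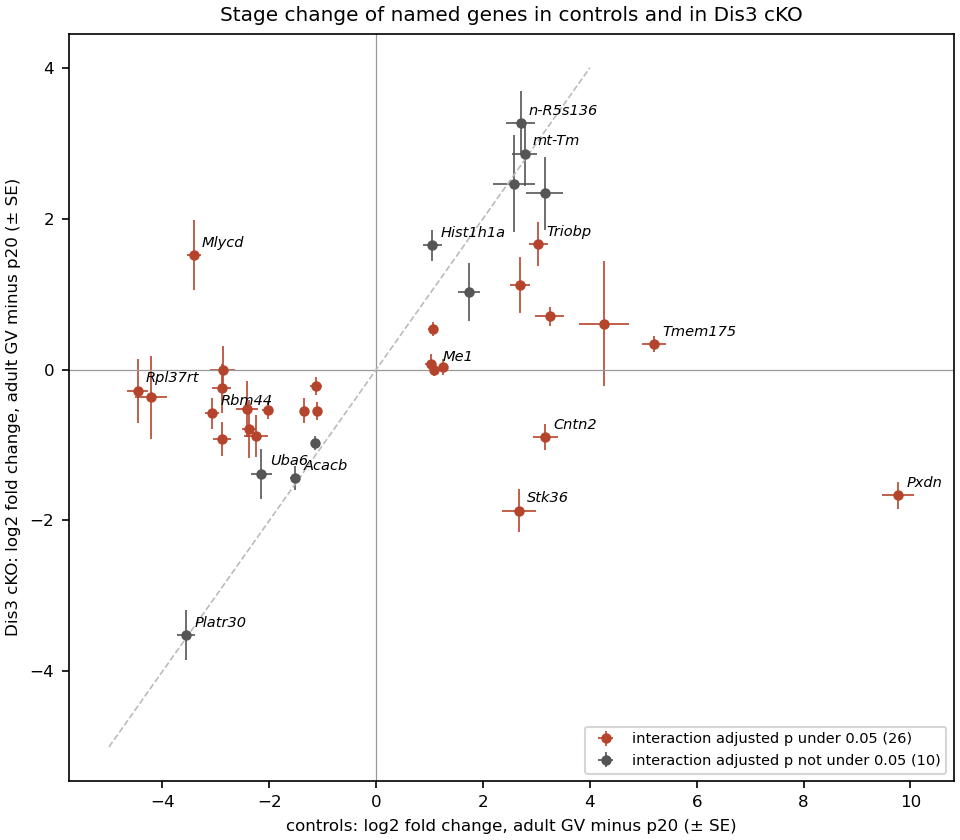
Log2 fold change, adult GV minus p20, in controls (x axis) and in Dis3 cKO (y axis) for 36 named genes, with SE as bars, 8 oocytes per group and a dashed line of equality; red marks an interaction with adjusted p under 0.05. Platr30, Acacb, mt-Tm and n-R5s136 lie by the dashed line, while Pxdn, Cntn2, Stk36 and Mlycd have opposite signs in the 2 genotypes.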

How the data were processed

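Levels of single genes were read from the gene counts that the authors deposited for each RiboMinus library, with ERCC counts in files of their own. The submitters' processing notes name cutadapt 2.5, FastQC 0.11.8, STAR 2.7.2a, SAMtools 1.9, HTSeq 0.9.1, R 3.5.1, DESeq2 1.24.0, SEACR and the build mm10, without their roles, and whether counting used strand is not given in the sources used here. CUT&Tag peak lists were deposited by the authors per library with a total signal for each peak, which served only to rank peaks within a list.

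The members and gene lists were chosen with earlier results of these data known. Of 55487 gene identifiers, 99.376% had a symbol. Counts of 16 libraries were filtered with filterByExpr, scaled by TMM and tested with edgeR 4.0.16 (R 4.3.3, robust quasi-likelihood fit, adult minus p20). P-values were adjusted by Benjamini-Hochberg over all 14455 genes tested. A call needed an adjusted p under 0.05 and a fold of at least 2. CPM values of single genes are TMM-scaled. Summed marker levels and the number of genes at or above 1 CPM were scaled to total gene counts, without TMM. The SE was obtained as the absolute log2 fold change over the square root of the F statistic. The interaction with Dis3 cKO was fitted over 4 groups. The step was tested on simulated counts. Shares of gene counts and the gene to ERCC ratio were compared by 2-sided exact permutation tests over 12870 regroupings. Peaks and motifs were described without a test. RefSeq promoters (GRCm38.p6) matched 71.373% of the tested genes by symbol.

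The text names 79 genes by a rule, 75 of them called. Eligible were called genes without overlap, with a mean of at least 10 CPM in the higher group. Their 2 title tags within each stage also had to differ by less than 2-fold in mean CPM plus 1. Of the eligible genes, the 12 largest changes and the 8 most abundant in each direction were named. From each list the 2 largest called changes in each direction were added. Kit, Foxo3, Cdk1 and Mtor were not called and were named as list members. Gene models and pseudogenes were left out. Other list members were named after their values were seen. The number of sample columns left unused was 0. DESeq2 1.42.0, limma 3.58.1 voom with the title tag as a random block, other scalings, filters and fold minimums and the omission of oocytes or tags were tried as alternatives. No batch is given beyond the title tags, and within-tag values are covered by leaving out each tag.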

Additional observations from a re-analysis of the deposited data

Results flagged for a closer look

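Single oocytes stood apart from the other 7 of their group, by Dixon's 95% criterion for 8 values, in 16 of 178 groups checked, and chance gives about 1 in 20. At p20, oocyte 1_3 was at 3.14 CPM for Fmo6 against 0 to 1.40 CPM in the others, and at 1.68 CPM for Ndufb4 against 0.221 to 0.742 CPM. In the same oocyte the 10 most abundant genes held 3.82% of gene counts against 3.97% to 4.07%. Oocyte 1_4 of p20 was at 2.07 CPM for mt-Tv against 0.774 to 1.29 CPM, and at 5.58 CPM for mt-Tm against 1.64 to 3.47 CPM. Oocyte 1_2 was at 25.7 CPM for Msi2 against 1.96 to 10.6 CPM, and at 0.530 CPM for Ago1 against 1.31 to 2 CPM. Oocyte 2_4 was at 48.6 CPM for Zfp395 against 1.83 to 12.8 CPM, and at 19.2 CPM for Uhrf2 against 3.93 to 9.94 CPM. Oocyte 2_1 was at 231 CPM for Rpap2 against 172 to 197 CPM, and oocyte 2_3 at 1.17 CPM for Zfp362 against 0 to 0.270 CPM.

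Among adults, oocyte AM1759_3 was at 0.222 CPM for Prr15l against 0 to 0.0497 CPM, and oocyte AM1759_2 at 1.61 CPM for Platr30 against 0.795 to 1.17 CPM. Oocyte AM1759_1 was at 93.6 CPM for Dennd4c against 111 to 126 CPM. Oocyte AM1758_4 was at 7.34 CPM for Mapkapk2 against 3.19 to 4.71 CPM, and oocyte AM1758_3 at 1.26 CPM for Rpsa against 0 to 0.428 CPM. For Prr15l, Platr30, Dennd4c, Mapkapk2, Rpap2, Fmo6, mt-Tv and mt-Tm the groups of the 2 stages did not overlap with these oocytes included.

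The stage change differed between controls and Dis3 cKO for 30 of 79 named genes by edgeR's interaction term (adjusted p under 0.05 over all genes in that fit, which 12% of all genes passed). All but Kit, Foxo3, Cdk1 and Mtor were chosen on their change in controls. The values are log2 fold changes, adult minus p20, in controls minus the same in Dis3 cKO, with 8 oocytes in each of the 4 groups. The difference was positive for Pxdn (11.43), Tmem175 (4.86), Stk36 (4.54), Cntn2 (4.06), Fmo6 (3.67), Hist1h3e (3.64), Arl8a (2.55), Fmo4 (1.57), Triobp (1.37), Rnf10 (1.23), Me1 (1.09), Elovl5 (0.95) and Ube2t (0.52). It was negative for Prr15l (-9.12), Mlycd (-4.92), Rpl37rt (-4.18), Ptprd (-3.85), Pigw (-2.86), Dmc1 (-2.67), Gba2 (-2.64), Rbm44 (-2.49), Mapkapk2 (-1.96), Zim1 (-1.89) and Ago1 (-1.76). Smaller negative differences were found for Focad (-1.59), Klhl12 (-1.49), Rusc2 (-1.37), Appbp2 (-0.91), Dennd4c (-0.81) and Rpap2 (-0.56). Prr15l was too low to be tested within Dis3 cKO alone. Of the other genes named here, Ago1 had the larger change in Dis3 cKO, and the rest had a smaller one there or one of the other sign.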

How the results depend on the processing

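The 400 higher and 661 lower genes were counted again under other choices. DESeq2 size factors gave 400 and 660, total counts 376 and 688, total counts without mitochondrial and the 50 most abundant genes 377 and 680, DESeq2 426 and 704, voom with tag blocks 463 and 752, all 6 RiboMinus groups in 1 fit 371 and 740, and tag sums 354 and 610. Without the low-count filter the counts were 678 and 1548, with at least 10 counts in all 16 libraries 173 and 378, with a fold minimum of 1.5 744 and 1350 and with 4 120 and 125. With ERCC counts as library size they were 45 and 13331. Leaving out 1 oocyte at a time gave 362 to 433 higher and 531 to 799 lower, and leaving out each title tag 294 to 457 and 494 to 696. Without the 2 least similar oocytes of each group (chosen after seeing the data) the counts were 373 and 460, among them 305 of the 400 and 403 of the 661. Genes at an adjusted p under 0.05 numbered 4815, against 2880 with tag sums, 3064 without adult tag AM1758 and 3093 without p20 tag 1. The cause of these changes was not tested, beyond the number of genes and oocytes that each choice leaves.

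Of 75 called genes among the 79 named, 45 kept their call in every alternative run for them and 30 lost it at least once; ERCC scaling was run for counts and lists only. Among the 37 chosen for size or abundance 32 kept it. Slc16a5 changed sign without adult tag AM1759 (-0.0923). With 1 oocyte left out, the log2 difference in the lncRNA share ranged from 0.0439 to 0.0748 and passed the threshold without AM1758_4 or p20 oocyte 2_1, and that in the number of genes at or above 1 CPM ranged from -0.0324 to -0.0191 and passed without AM1759_2.

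Peak shares are given as percentage points, genes called higher or lower minus neither. For H3K27me3 at p20, higher minus neither (27.95) was 23.16 at or above 10 CPM, 23.6 under 10 CPM, 23.79 with peaks above the median total signal of their list, 33.85 over gene bodies and 21.29 within 250 bases. For Pol II it was -14.36 in adults and -16.61 at p20 over gene bodies, against -2.53 and -5.32 at starts. Lower minus neither for H3K27me3 was 5.86 and -4.94 in adults and 4.9 and -5.95 at p20 at or above and under 10 CPM, against 1.92 and 1.66 for all genes, and -0.07 at p20 over gene bodies. For Pol II it was -1.6 in adults and -1.25 at p20 over gene bodies, against 0.39 and 0.76 at starts, and 4.82 at p20 at or above 10 CPM.

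No paired analysis was possible because adult titles carry the tags AM1758 and AM1759 and p20 titles the tags 1 and 2, which name no oocyte, animal or day shared by both stages. Depth limits the genes under about 1 CPM, where a library holds few counts and the fitted fold is imprecise. Strand use, ERCC amount and strain are not given in the sources used here.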
